A study of Mus musculus with 12 samples.

Results

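A set of 30 genes of cholesterol synthesis, uptake and efflux was followed in mouse liver, chosen by name from the 50499 genes of a table of read counts. They comprise 8 enzymes that take acetyl-CoA to the isoprenoids, 3 enzymes that build squalene and lanosterol, 8 enzymes that turn lanosterol into cholesterol, 4 genes of the SREBP2 control system, 3 genes of receptor turnover, intracellular transport and esterification, and 4 genes of the LXR and efflux system. All 30 were listed in the table, and 29 passed the low-count filter that left 11934 genes for testing. Insig1 was listed at 0 in all 12 libraries. It lies wholly within the gene model of another gene on the opposite strand, so no level can be given for it.

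The series was designed to study AATF, a nucleolar protein and regulator of transcription, in mice with diet-induced metabolic dysfunction-associated steatohepatitis (MASH). Wild-type male mice, given as C57Bl/6NCrl in the growth protocol and as C57bl/6 in the sample labels, were 6 weeks old when they started on chow and plain water or on a Western diet and sugar water. After 12 weeks all of them received an AAV8 vector by tail vein, and livers were taken after another 12 weeks. The vector carried the TBG promoter, which is active in hepatocytes, and either no insert (AAV8-TBG-Null) or a silencing insert (AAV8-TBG-siAATF). There were 4 groups of 3 libraries: chow null, chow siAATF, Western null and Western siAATF. Whether the replicates came from different mice is not stated in the labels, and the p-values cover the spread among libraries only, which may be technical. The composition of the Western diet is not given in the sources used here.

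Cholesterol is made in the endoplasmic reticulum and peroxisomes from acetyl-CoA, through mevalonate, isoprenoid diphosphates, squalene and lanosterol. The genes of this route are classic targets of the transcription factor SREBP2, which the escort protein SCAP carries to the Golgi for cleavage when sterols are scarce, and which INSIG proteins hold back with SCAP when sterols are plentiful. Oxysterols, which accumulate with cholesterol, activate the nuclear receptor LXR, which raises the genes of efflux and of receptor degradation. The liver both makes cholesterol and disposes of it into bile, so the balance between these arms is a classic readout of hepatic sterol supply.

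Total counts per library ran from 1646853 to 13469819, and reads of Rn18s-rs5, a gene of 18S ribosomal RNA, made up 0.871% to 50.8% of them. This share was over 25% in 4 libraries, namely chow null 1 (25.2%), chow null 2 (30.4%), chow siAATF 1 (41.4%) and Western siAATF 2 (50.8%). Aatf itself stood at 36.8, 26.5 and 31.6 CPM (counts scaled to the library size) in chow null and at 39.2, 24.6 and 40.5 CPM in chow siAATF. It stood at 27.6, 21.1 and 30 CPM in Western null and at 27.0, 27.5 and 28.2 CPM in Western siAATF. Aatf was therefore not lower in the libraries labelled siAATF, and each direction given below for the vector rests on that label alone.

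The liver's own cells were checked by summed marker levels. The 10 hepatocyte markers, albumin and HNF4A among them, were all detected and summed to 68100 to 103000 CPM in chow null, 79100 to 79500 in chow siAATF, 51300 to 56900 in Western null and 49500 to 61200 in Western siAATF. The macrophage list (1 of 10 at 0 in every library, Cd5l) summed to 273 to 388 CPM in chow null and 674 to 1130 in Western null. The stellate and fibroblast list (1 of 10 at 0, Lrat) summed to 198 to 346 and 1150 to 1630 CPM, and the list of lipid-associated macrophages (7 genes, none at 0) to 11.9 to 30.7 and 267 to 372 CPM. In Western siAATF those lists summed to 429 to 920, 295 to 805 and 43.6 to 70.4 CPM in turn. Cd5l and Lrat, like Insig1, each lie wholly within another gene model on the opposite strand, so no level can be given for them. In bulk tissue, fewer cells of a type and less RNA per cell cannot be told apart, and the part of cell makeup in the results below was not tested.

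Diet under the null vector was the first comparison named by the series. Of the 29 tested genes, 14 were lower in Western null than in chow null and 0 were higher (edgeR's quasi-likelihood test, p adjusted by Benjamini-Hochberg over all genes tested, threshold 0.05). Over all genes tested, 6.77% were called lower and 6.44% higher. The median log2 fold change was -0.91 over the 29 genes and -0.03 over all genes. Over the 10 hepatocyte markers it was -0.71, with 4 called lower (Serpina1c, Tat, Hnf4a and Fgb) and 0 higher. At an unadjusted p under 0.05, 17 of the 29 genes were lower and 2 higher, where 14.8% and 13.6% of all genes tested were. DESeq2 called 15 of the 29 lower and 0 higher, where it called 1001 of 11934 genes lower and 1025 higher. The 3 Western null libraries all lay below the 3 chow null libraries for 18 of the 29 genes, where 17% of all genes tested did so, and all above them for 3, where 17.7% of all genes did so.

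Of the 14 calls, 13 were enzymes of the synthesis route. Among the 19 enzymes, 13 were lower and the other 6 did not pass, and all 19 fold changes were below 0. All 8 enzymes from lanosterol to cholesterol were called lower, as were 2 of 3 between farnesyl diphosphate and lanosterol and 3 of 8 from acetyl-CoA to the isoprenoids. Outside synthesis the sole call was Stard4, a carrier of sterol between membranes. None of the 3 tested SREBP2 control genes and none of the 4 LXR and efflux genes passed.

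**Figure D1:**
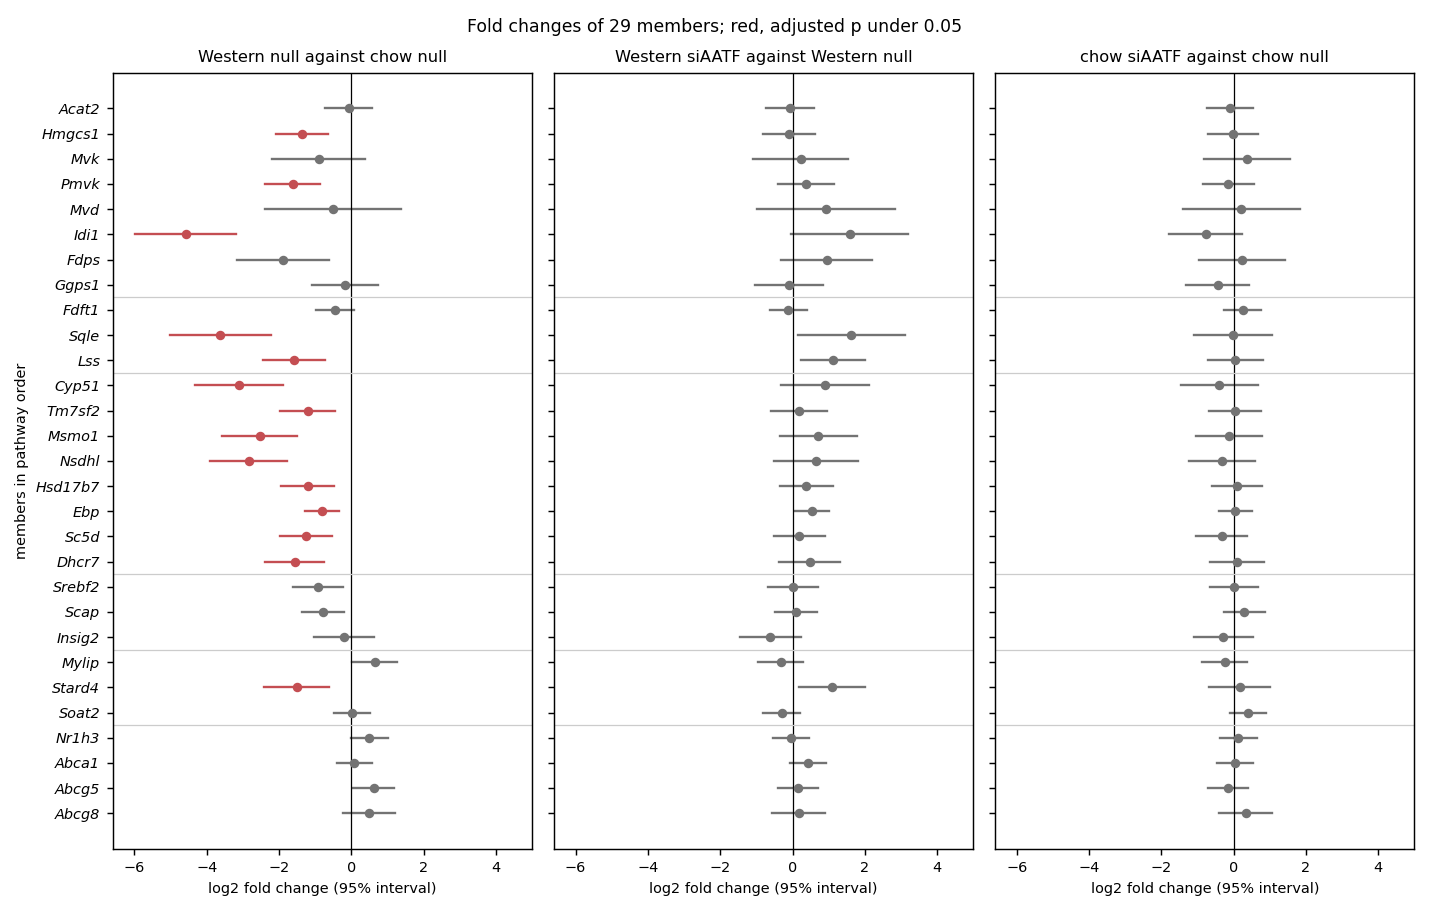
Log2 fold change of each tested gene (y axis, in pathway order, grey lines between roles) in the 3 comparisons named by the series (x axis), with 95% confidence intervals; red points passed an adjusted p of 0.05. The 14 calls lie to the left of 0 in Western null against chow null, and no gene passed in the comparisons of vectors.

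For 4 of the lower enzymes the reference promoters are shown, to give the letters around the start of genes that were lower together. By background knowledge, SREBP2 binds sterol response elements and acts with NF-Y, which binds CCAAT, and with SP1, which binds GGGCGG. Each window runs from 250 bases before to 50 bases after the annotated start (RefSeq, GRCm38.p6, 5′ to 3′ on the gene's strand), and capitals mark CCAAT or GGGCGG read on either strand. The sterol response element was searched as TCACNCCAC on both strands. The 4 are the genes with the smallest adjusted p for which the RefSeq table holds a promoter.
Idi1, chr13:8885356-8885655, plus strand: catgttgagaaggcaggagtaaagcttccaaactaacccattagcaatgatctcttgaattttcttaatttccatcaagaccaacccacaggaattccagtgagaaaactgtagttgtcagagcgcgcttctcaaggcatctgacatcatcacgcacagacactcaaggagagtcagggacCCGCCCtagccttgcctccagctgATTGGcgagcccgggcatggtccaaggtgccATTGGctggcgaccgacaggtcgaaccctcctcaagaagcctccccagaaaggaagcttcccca
Nsdhl, chrX:72918271-72918570, plus strand: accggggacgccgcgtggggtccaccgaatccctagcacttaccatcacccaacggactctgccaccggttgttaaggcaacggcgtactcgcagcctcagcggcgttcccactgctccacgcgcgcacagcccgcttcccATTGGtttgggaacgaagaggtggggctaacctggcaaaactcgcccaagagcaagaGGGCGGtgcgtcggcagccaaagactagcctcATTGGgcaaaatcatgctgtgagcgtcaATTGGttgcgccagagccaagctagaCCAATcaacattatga
Cyp51, chr5:4104648-4104947, minus strand: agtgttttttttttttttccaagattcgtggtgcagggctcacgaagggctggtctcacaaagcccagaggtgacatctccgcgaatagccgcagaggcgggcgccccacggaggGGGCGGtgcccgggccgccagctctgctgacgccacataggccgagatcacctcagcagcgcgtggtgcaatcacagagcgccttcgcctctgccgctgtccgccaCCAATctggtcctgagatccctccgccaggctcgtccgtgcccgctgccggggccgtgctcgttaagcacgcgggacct
Msmo1, chr8:64733529-64733828, minus strand: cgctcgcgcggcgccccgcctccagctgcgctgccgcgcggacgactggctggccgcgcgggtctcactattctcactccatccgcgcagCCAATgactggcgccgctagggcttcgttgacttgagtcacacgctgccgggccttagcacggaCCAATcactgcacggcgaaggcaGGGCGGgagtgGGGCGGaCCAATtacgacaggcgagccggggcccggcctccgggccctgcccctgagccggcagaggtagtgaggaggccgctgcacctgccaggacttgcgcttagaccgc
Idi1 carried 2 CCAAT boxes and 1 GGGCGG box in this window, Nsdhl 4 and 1, Cyp51 1 and 1, and Msmo1 3 and 2.

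Of the 30 genes, 25 matched a promoter in the RefSeq table by symbol. CCAAT was present in 20 of the 25, against 37.9% of 27025 promoters of the same length, and GGGCGG in 19 of the 25, against 35.9%. Among the 12 matched genes that were lower on the Western diet, 11 had CCAAT and 11 had GGGCGG, and among the 13 other matched genes these numbers were 9 and 8. The 13 include Insig1, which was not tested and had both. They also include Abcg5 and Abcg8, whose windows overlap, so part of the same sequence was searched for each. The exact sterol response element letters occurred in 1 of the 25, Hmgcs1, and in 1.22% of all promoters. With up to 1 mismatch they occurred in 10 of the 25 and in 24% of all promoters. The Hmgcs1 match began 137 bases before the start (position -137), and it is shown with 40 bases on each side and the element in capitals; it was chosen after its letters were seen.
Hmgcs1, chr13:119690174-119690262, plus strand: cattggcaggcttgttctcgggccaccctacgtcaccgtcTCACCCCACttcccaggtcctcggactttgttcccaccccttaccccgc
A match describes letters in this window and is not evidence that a factor binds there.

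The early enzymes make the building blocks of all isoprenoids. Idi1, which isomerises isopentenyl diphosphate (GRCm39 chromosome 13, 8935642 to 8942432, plus strand), stood at 28.3, 14.7 and 15.1 CPM in chow null and at 0, 1.36 and 0.808 CPM in Western null. Its log2 fold change was -4.58 ± 0.66 (SE; edgeR adjusted p = 0.000418), and every Western null library lay far below every chow null library. The Western null levels rest on few counts: 3 counts, the limit below which a level cannot be told from 0, correspond to 0.269 to 1.48 CPM in these libraries. The table also lists 5 pseudogenes of Idi1, looked up after its levels were seen. Of these, Idi1-ps2 was well counted, at 10.2 ± 5.58 CPM (SD, n = 3) in chow null and 9.01 ± 3.22 CPM in Western null. Reads of similar copies may be divided between them in counting, so the level of Idi1 is uncertain. The sum of Idi1 and Idi1-ps2 was 33.9, 23.2 and 31.4 CPM in chow null and 6.42, 13.97 and 8.80 CPM in Western null, again without overlap.

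Hmgcs1, which condenses acetyl-CoA with acetoacetyl-CoA to HMG-CoA (GRCm39 chromosome 13, 120151887 to 120169796, plus strand), stood at 231, 175 and 133 CPM in chow null and at 69.6, 72.2 and 66.3 CPM in Western null. The groups were apart, with a tight Western null group, and the log2 fold change was -1.37 ± 0.34 (adjusted p = 0.0148). Pmvk, the phosphomevalonate kinase, stood at 17.2, 44.0 and 21.8 CPM against 10.4, 7.50 and 8.35 CPM, a change of -1.62 ± 0.36 (adjusted p = 0.00801). Its chow null libraries spread widely, yet the lowest of them exceeded all 3 Western null libraries.

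Fdps, which makes farnesyl diphosphate, stood at 55.2, 86.4 and 57.5 CPM in chow null and at 10.9, 19.1 and 21.9 CPM in Western null. These groups were also apart, but the change of -1.89 ± 0.58 missed the threshold (adjusted p = 0.0520), and DESeq2 called it lower. The other 4 enzymes of this segment did not pass. Mvk, the mevalonate kinase, stood at -0.91 ± 0.60 on the log2 scale (adjusted p = 0.338), and its groups overlapped. Acat2, which makes acetoacetyl-CoA in the cytosol, stood at -0.08 ± 0.31 and Ggps1, which makes geranylgeranyl diphosphate for protein prenylation, at -0.18 ± 0.43. Mvd, the diphosphomevalonate decarboxylase, was counted at 0 to 2.65 CPM in the 12 libraries, with 50.4% of its span shared with 2 other genes combined, and at this depth a difference was not detectable.

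Squalene and lanosterol come next. Sqle, the squalene epoxidase (GRCm39 chromosome 15, 59186941 to 59203042, plus strand), stood at 31.0, 23.7 and 16.1 CPM in chow null and at 1.98, 2.38 and 1.62 CPM in Western null. All 3 Western null libraries lay near 2 CPM, and the log2 fold change was -3.63 ± 0.65 (edgeR adjusted p = 0.00290). Lss, the lanosterol synthase, stood at 10.1, 11.3 and 11.8 CPM against 3.46, 2.73 and 4.31 CPM, a change of -1.59 ± 0.40 (adjusted p = 0.0166); 43.9% of its span overlaps a neighbour. Fdft1, the squalene synthase, was at 53.9, 47.4 and 41.5 CPM against 41.0, 31.7 and 32.3 CPM. Its groups were narrowly apart and its change of -0.45 ± 0.24 did not pass (adjusted p = 0.234).

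From lanosterol on, the enzymes strip methyl groups and move double bonds. Cyp51, the lanosterol demethylase (GRCm39 chromosome 5, 4130674 to 4154697, minus strand), stood at 111, 68.9 and 56.5 CPM in chow null and at 13.8, 2.38 and 10.96 CPM in Western null. The change was -3.12 ± 0.56 (adjusted p = 0.00361), with Western null 2 the lowest library. Nsdhl is the sterol dehydrogenase of a later demethylation step (GRCm39 chromosome X, 71962127 to 72002134, plus strand). It was even across chow null at 22.9, 21.5 and 23.4 CPM and stood at 4.44, 0.681 and 3.95 CPM in Western null. Its change was -2.84 ± 0.51 (adjusted p = 0.00204), and Western null 2 was again lowest, with 2 counts, under the floor of 3 counts (1.02 CPM there), so its level cannot be told from 0. Msmo1 is the methylsterol monooxygenase of that later step (GRCm39 chromosome 8, 65171157 to 65186822, minus strand). It stood at 53.2, 35.6 and 47.5 CPM against 8.39, 7.16 and 8.08 CPM, a change of -2.54 ± 0.49 (edgeR adjusted p = 0.00391). Its Western null libraries were close together and far below the chow null range.

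The other 5 enzymes of this segment had changes between -1.57 and -0.82. Dhcr7, which makes cholesterol from 7-dehydrocholesterol, stood at 29.8, 26.0 and 36.0 CPM against 15.8, 5.11 and 10.8 CPM, a change of -1.57 ± 0.39 (adjusted p = 0.0138). Sc5d, the sterol desaturase just before it, stood at 319, 154 and 190 CPM against 96.8, 91.3 and 90.3 CPM, a change of -1.26 ± 0.34 (adjusted p = 0.0220). Neither pair of groups overlapped, although chow null 1 was far above its group for Sc5d. Tm7sf2, a sterol reductase, stood at 30.3, 53.6 and 44.6 CPM against 25.7, 19.1 and 11.9 CPM, a change of -1.21 ± 0.36 (adjusted p = 0.0342). Hsd17b7 is the ketosteroid reductase of the same step as Nsdhl and Msmo1. It stood at 47.0, 29.9 and 32.3 CPM against 21.2, 10.9 and 16.0 CPM, a change of -1.21 ± 0.34 (edgeR adjusted p = 0.0292). The gap between groups was narrow for Tm7sf2 and wider for Hsd17b7. Ebp, the sterol isomerase, stood at 113, 103 and 99.5 CPM against 59.2, 58.6 and 61.4 CPM. Its change was the smallest of the 14, at -0.82 ± 0.22 (adjusted p = 0.0227), with little spread in either group.

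**Figure D2:**
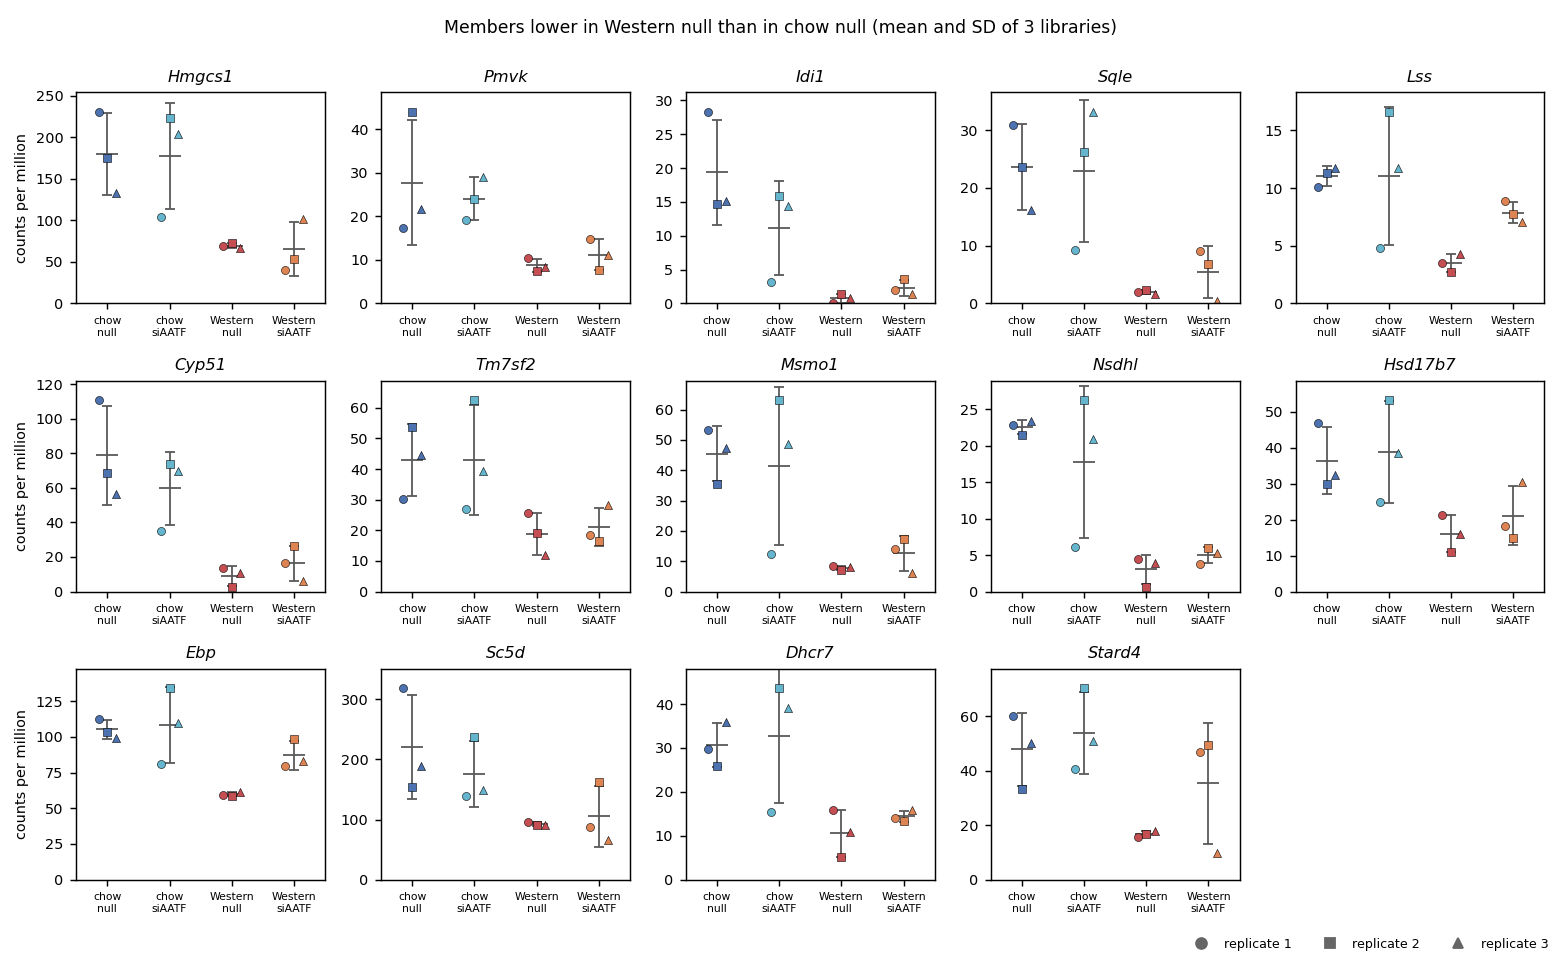
Level (CPM, y axis) of each gene that was lower in Western null than in chow null, by group (x axis); each point is 1 library, its shape gives the replicate, and bars mark the mean and SD of 3 libraries. For all 14 genes the 3 Western null points lie below the 3 chow null points. By SD, the Western siAATF points spread more widely than the Western null points for all but Tm7sf2, Nsdhl and Dhcr7.

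The number of calls depended on the libraries and on scaling. It was between 6 and 16 when 1 library at a time was left out, with 8 without chow null 3 and 9, 6 and 7 without Western null 1, 2 and 3. Calls over all genes fell in these settings too. From 808 of 11934, genes called lower became 321 of 12138 without chow null 3. They became 363 of 12346, 330 of 12350 and 483 of 12127 without Western null 1, 2 and 3. Library totals without further scaling gave 5, where 178 of 11934 genes tested were lower. The fit without the 4 libraries with over 25% 18S leaves 1 chow null library and is given with the alternatives below. Idi1, Sqle, Msmo1 and Nsdhl were called lower in all 24 alternatives; Pmvk and Cyp51 were each lost in 1.

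No gene of SREBP2 control passed. Srebf2, which encodes SREBP2 itself, stood at 44.8, 97.7 and 66.2 CPM in chow null and at 40.5, 38.5 and 31.2 CPM in Western null. The groups were apart, and the change of -0.91 ± 0.33 missed the threshold (edgeR adjusted p = 0.0744). Scap stood at 111, 163 and 129 CPM against 80.5, 71.2 and 81.8 CPM, a change of -0.78 ± 0.28 (adjusted p = 0.0699), also without overlap. Insig2, which holds the SREBP2 and SCAP complex in the endoplasmic reticulum, overlapped between groups at -0.20 ± 0.39.

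Stard4, in the transport group, stood at 60.1, 33.3 and 50.1 CPM in chow null and at 15.8, 16.7 and 17.96 CPM in Western null, a change of -1.52 ± 0.43 (adjusted p = 0.0297). The Western null libraries were tightly grouped below all chow null libraries. Mylip, the ubiquitin ligase that degrades lipoprotein receptors, stood at 9.26, 16.9 and 12.4 CPM against 18.3, 22.5 and 17.9 CPM. Its groups were narrowly apart in the upward direction, and 0.65 ± 0.30 did not pass (adjusted p = 0.161). Soat2, which esterifies cholesterol in hepatocytes and enterocytes, was at 0.03 ± 0.24 with a 95% interval from -0.47 to 0.53.

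All 4 LXR and efflux genes had fold changes above 0 and none passed. Abcg5 and Abcg8 together encode the transporter that secretes sterols into bile. Abcg5 stood at 43.6, 41.2 and 47.5 CPM in chow null and at 51.8, 66.1 and 84.2 CPM in Western null, 0.61 ± 0.26 on the log2 scale (adjusted p = 0.134), and Abcg8 at 99.8, 114 and 109 CPM against 116, 140 and 193 CPM, 0.49 ± 0.35 (adjusted p = 0.375). Both pairs of groups were apart; the genes overlap each other over 27% and 27.9% of their spans, so part of their reads may be missing. Nr1h3, the gene of LXR alpha, was at 0.50 ± 0.24 (adjusted p = 0.181), and Abca1, which loads cholesterol onto apolipoprotein A-I, at 0.08 ± 0.23.

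**Figure D3:**
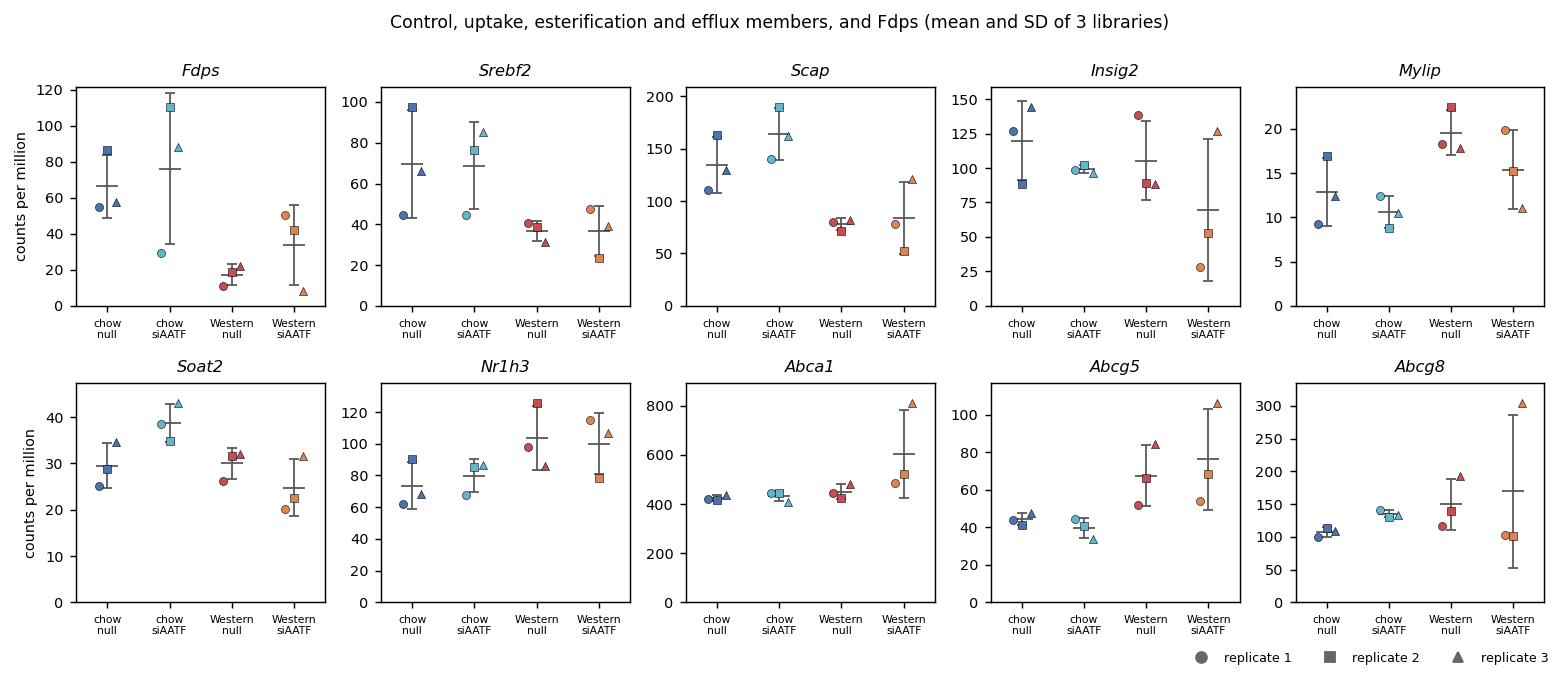
Level (CPM, y axis) of Fdps and of the control, uptake, esterification and efflux genes other than Stard4 and Insig1, by group (x axis); each point is 1 library, its shape gives the replicate, and bars mark the mean and SD of 3 libraries. Abcg5 and Abcg8 lie above chow null in all 3 Western null libraries, and Western siAATF 3 is the highest point for Abca1, Abcg5 and Abcg8.

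Other genes around the pathway were counted from lists in Western null against chow null, where 6.44% of all genes tested were higher and 6.77% lower. These lists are short, and nothing is read from 1 or 2 calls in any of them. Among 9 other sterol and isoprenoid enzymes, Pdss2, a subunit of the enzyme that makes the ubiquinone side chain, was lower (-1.03 ± 0.27) and 0 were higher. Of 12 genes of SREBP processing and sterol-regulated degradation and of 6 tested lipoprotein receptors and their partners, 0 passed in either direction by edgeR. Of 11 tested genes of a list of other SREBP-regulated genes, Rdh11, a retinol dehydrogenase, and Mmab, a cobalamin enzyme, were lower at -1.70 ± 0.27 and -1.43 ± 0.33, while Aacs, which activates acetoacetate, was higher at 2.86 ± 0.46. Aacs stood at 13.9, 29.4 and 25.8 CPM in chow null and at 102, 185 and 203 CPM in Western null, opposite to the synthesis enzymes.

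In the same comparison, of 13 genes of sterol transport and ester turnover, 2 were higher and 0 lower: Soat1, the acyltransferase of macrophages and many other cells, at 1.69 ± 0.47, and Gramd1b, a sterol transfer protein, at 1.41 ± 0.42. Of 10 LXR partners and other LXR-regulated genes, Abcg1, an efflux transporter prominent in macrophages, was higher at 1.76 ± 0.35 and Ncor1, a corepressor, lower at -0.80 ± 0.24. The macrophage and lipid-associated macrophage sums given above were higher in the same libraries, and their part in the rise of Soat1 and Abcg1 was not tested. None of the 6 pathway lists had a call in either vector comparison by edgeR. In Western siAATF against Western null, 6 of the 7 markers of lipid-associated macrophages were lower and none of the 9 tested macrophage markers passed.

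The vector on the Western diet was the second comparison named by the series, and it shares the Western null libraries with the first. Of the 29 genes, 0 were higher and 0 lower, where 0.31% of all genes tested were called higher and 0.561% lower. DESeq2 also called 0 of the 29, where it called 126 of 11934 genes higher and 159 lower. At an unadjusted p under 0.05, 4 were higher (Sqle, Lss, Ebp and Stard4) and 0 lower, where 5.56% and 5.09% of all genes tested were. All Western siAATF libraries lay above all Western null libraries for 3 genes, Lss, Ebp and Abca1, where 7.69% of all genes tested did so, and 0 had them all below, where 7.87% did so. The median log2 fold change was 0.23 over the 29 genes and 0.06 over all genes. Over the 10 hepatocyte markers it was 0.29, with 1 called higher (Serpina1c) and 0 lower.

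The mean of Western siAATF lay between those of Western null and chow null for 14 of the 19 enzymes. It did so for 51.6% of the 6106 tested genes whose mean, like that of all 19 enzymes, was lower in Western null than in chow null. Those genes were not matched to the enzymes for the size of this difference. A wide gap holds another group's mean more readily than a narrow gap does, and the same Western null libraries set the gap. No conclusion is therefore drawn from setting 14 of 19 against 51.6%. Lss stood at 8.85, 7.72 and 7.04 CPM in Western siAATF, 1.12 ± 0.42 above Western null on the log2 scale (edgeR adjusted p = 0.2998). Ebp stood at 79.6, 98.3 and 83.2 CPM, 0.54 ± 0.22 above (adjusted p = 0.360). Both were apart from Western null, and neither fold change passed. Over the 19 enzymes as a percentage of each enzyme's chow null mean, the median was 49.8%, 43.8% and 51.8% in the 3 Western siAATF libraries and 43.8%, 27.1% and 36.9% in the 3 Western null libraries, and the 2 ranges met at 43.8%.

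Some of the genes differed widely within Western siAATF. Sqle stood at 9.07, 6.81 and 0.440 CPM in Western siAATF, the last being 1 count, and its difference from Western null was 1.63 ± 0.69 (edgeR adjusted p = 0.398). Stard4 stood at 46.9, 49.5 and 9.68 CPM (1.09 ± 0.43, adjusted p = 0.342) and Fdps at 50.4, 42.0 and 8.36 CPM (0.95 ± 0.58, adjusted p = 0.622). For these genes and Msmo1, 4 of the 29, Western siAATF 1 and 2 lay above all Western null libraries and Western siAATF 3 below all of them, as for 4.53% of all genes tested. Over the 19 enzymes that library was the lowest of its group for 10 and the highest for 5, where it was the lowest for 41.5% and the highest for 35.3% of all genes. It had 1989409 counts, the fewest of its group, and 0.871% of 18S.

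The reverse held for other genes. Western siAATF 3 was the highest of its group for Insig2 at 127 CPM against 28.5 and 52.6, for Hmgcs1 at 102 CPM against 40.5 and 53.8, and for Abcg8 at 304 CPM against 103 and 101. It also held the highest Abca1, at 811 CPM against 484 and 521, and the highest Abcg5, at 106 CPM against 54.0 and 68.5. Without this library, Sqle (2.05, adjusted p = 0.0343) and Stard4 (1.49, adjusted p = 0.00445) were called higher and Insig2 (-1.38, adjusted p = 0.0128) lower. Leaving it out also raised the calls over all genes, from 37 higher and 67 lower of 11934 to 201 and 212 of 12379. Sqle and Stard4 were also called higher when no filter on low counts was applied, where 385 of 22289 genes were higher and 187 lower.

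**Figure D4:**
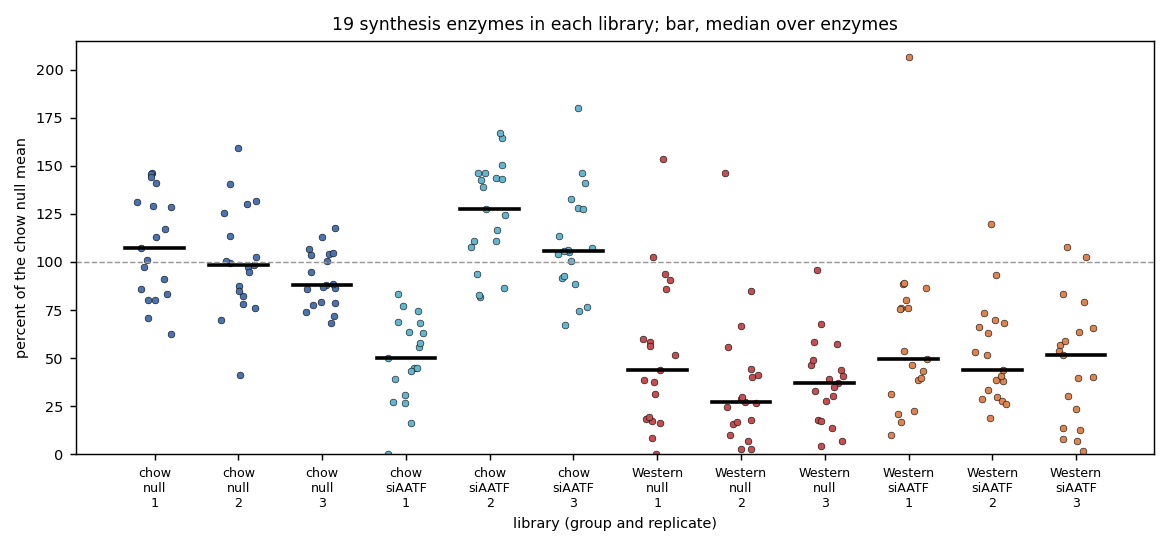
Level of each of the 19 synthesis enzymes as a percentage of its chow null mean (y axis) in the 12 libraries (x axis); each point is 1 enzyme and bars mark the median of the library. Chow siAATF 1 has a median of 50.2%, against 128% and 106% in the other chow siAATF libraries.

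The vector on chow was the third comparison named by the series, and it shares the chow null libraries with the first. Of the 29 genes, 0 were called in either direction by edgeR, as were 0% of all genes tested higher and 0% lower. At an unadjusted p under 0.05 the count was also 0, where 1.06% of all genes were higher and 1.32% lower, and DESeq2 and limma-voom called 0. The fold changes of the enzymes lay on both sides of 0, with 10 of 19 below it.

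Within the chow siAATF group, the first library stood apart. It was the lowest of its group for 19 of 19 enzymes, where it was the lowest for 39% of all genes tested, and its median enzyme level was 50.2% of the chow null mean. The other 2 libraries had medians of 128% and 106%. Msmo1 stood at 12.4 CPM in that library against 63.2 and 48.7 CPM in the others, and Nsdhl at 6.08 CPM against 26.3 and 20.9 CPM. Idi1 stood at 3.17 CPM against 15.9 and 14.4 CPM, but Idi1-ps2 was highest there, at 16.7 CPM against 6.40 and 6.69 CPM. Their sum was nearly even, at 19.8 CPM against 22.3 and 21.1 CPM, so the low Idi1 level in that library is uncertain. Outside the enzymes the library was not uniformly low, with Soat2 at 38.6 CPM against 34.8 and 43.1 CPM and Abca1 at 445 CPM against 447 and 410 CPM. Its 18S share was 41.4%, against 1.54% and 4.25% in the others, and the part of that share in these levels was not tested.

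Diet under the silencing vector was compared between Western siAATF and chow siAATF. Of the 29 genes, 1 was lower, Hmgcs1, and 0 were higher, where 0.721% of all genes tested were lower and 0.763% higher. Hmgcs1 stood at 104, 224 and 204 CPM in chow siAATF and at 40.5, 53.8 and 102 CPM in Western siAATF, a change of -1.45 ± 0.34 (edgeR adjusted p = 0.0436). The 2 groups nearly touched, at 104 CPM in chow siAATF 1 and 102 CPM in Western siAATF 3. At an unadjusted p under 0.05, 15 genes were lower and 1 higher, where 6.08% and 9.1% of all genes tested were. The median log2 fold change was -0.82 over the 29 genes and 0.04 over all genes. Over the 10 hepatocyte markers it was -0.43, with 0 called in either direction. DESeq2 called 8 of the 29 lower and Abcg5 higher, where it called 219 of 11934 genes lower and 294 higher. By edgeR, 6 of the 29 were lower without chow siAATF 1, where 65 of 12222 genes tested were lower, in place of 86 of 11934. Without Western siAATF 3, 8 of the 29 and 334 of 12379 genes tested were lower. The number of the 29 was 0 without any of 7 other libraries (chow null 3, chow siAATF 2 and 3, Western null 1 and 3, Western siAATF 1 and 2). Over all genes tested, 24 to 69 were lower in those 7 settings. Without Western null 2 the single call was Nsdhl in place of Hmgcs1.

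The diet effect was not shown to differ between vectors. In the interaction of diet and vector, 0 of the 29 genes passed in either direction by edgeR, where 0.101% of all genes tested were higher and 0.0922% lower. DESeq2 called 0 of the 29 in both directions, where it called 63 of 11934 genes higher and 61 lower. At an unadjusted p under 0.05, 1 was higher, Idi1, and 0 lower, where 5.3% and 3.86% of all genes tested were. Its interaction term was 2.36 ± 0.90 on the log2 scale (edgeR adjusted p = 0.434), with Idi1 at 1.99, 3.63 and 1.32 CPM in Western siAATF. Reads may be divided between Idi1 and Idi1-ps2, so this term is uncertain. Their sum averaged 29.5 CPM in chow null, 21.1 in chow siAATF, 9.73 in Western null and 10.3 in Western siAATF. The interaction of the sum was not tested. For Sqle the term was 1.66 ± 0.86 and for Lss 1.07 ± 0.55, with 95% intervals from -0.17 to 3.49 and from -0.09 to 2.24.

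Set against chow null, where both diet and vector differ, Western siAATF was lower for 4 of the 29 genes and higher for 0, where 1.17% of all genes tested were lower and 1.26% higher. The 4 were Idi1 (-3.00 ± 0.57, edgeR adjusted p = 0.0132), Nsdhl (-2.19 ± 0.49, adjusted p = 0.0278), Hmgcs1 (-1.47 ± 0.34, adjusted p = 0.0331) and Cyp51 (-2.22 ± 0.53, adjusted p = 0.0464). Idi1 passed in 23 of 24 alternatives and Nsdhl in 18, while Cyp51 passed in 13 and Hmgcs1 in 12. The count was 0 to 7 with 1 library left out. It was 0 without Western siAATF 1, where 29 of 12386 genes tested were lower, in place of 140 of 11934. It was 7 without Western siAATF 3, where 297 of 12379 were lower. It was 1 without chow null 1 or 3, and 2 without chow null 2, Western null 1 or Western null 3. Over all genes tested, 78 and 29 were lower without chow null 1 and 3. The numbers were 137, 107 and 90 without chow null 2, Western null 1 and Western null 3.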

How the data were processed

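Liver RNA from 12 samples was sequenced after SMART-Seq library preparation, per the labels' protocols. The deposited table holds whole-number read counts per gene; reads were aligned with STAR 2.7.11 to GRCm39 and counted with featureCounts 2.0.1, and DESeq2 1.42.0 and R 4.3.2 are also named, per the submitters' processing notes. For strand and overlapping genes, the counting settings were not given in the sources used here. Each gene's length in the table equals its whole span, so introns were counted with exons, and a gene lying inside another, such as Insig1, is listed at 0. Without strand, reads of overlapping genes cannot be told apart.

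From the deposited counts, CPM were computed with TMM library sizes. The main test was edgeR 4.0.16 (R 4.3.3): filterByExpr by group, 1 robust quasi-likelihood fit of all 12 libraries with 4 group means, Benjamini-Hochberg adjustment over 11934 genes and a threshold of 0.05. Intervals are at 95% and the floor is 3 counts; the labels name no molecular identifiers, so floors cover counting error only. Replicates of a group differed beyond counting noise (lowest chi-square 10.3 per degree of freedom), and none was counted as a repeat of another. The test scripts were tested on simulated data.

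All members are reported whatever their values; from each list of other pathway genes, up to 4 genes past the threshold with the smallest adjusted p are named. The members and lists were chosen with earlier results of these data known. Alternatives were DESeq2, limma-voom 3.58.1, RLE and total-count scaling, removal of the 18S gene, no and stricter low-count filters (at least 1 CPM in 6 libraries), only the compared groups, a replicate block, each library left out, the libraries over 25% 18S left out, a gene span correction and a threshold of 0.1. Promoters came from RefSeq on GRCm38.p6, so their coordinates are not those of the count table.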

Additional observations from a re-analysis of the deposited data

How the results depend on the processing

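The count of genes lower in Western null than in chow null, 14, was 14 to 17 under DESeq2, limma-voom, RLE scaling, removal of the 18S gene, both other filters, the compared groups alone, the gene span correction and a threshold of 0.1. It was 5 with total counts, 8 without the libraries over 25% 18S (which leaves 1 chow null library, assumed to vary like the others) and 6 to 16 with 1 library left out; no gene was called higher under any of these. Total counts moved the median fold change of all genes by 0.29 on the log2 scale in this comparison, by -0.44 in Western siAATF against Western null, by -0.21 in Western siAATF against chow siAATF, by -0.16 in Western siAATF against chow null and by -0.48 in the interaction. The all-gene split of 769 higher and 808 lower became 561 and 178, that of Western siAATF against Western null 14 and 81 in place of 37 and 67, that against chow siAATF 31 and 52 in place of 91 and 86, and that against chow null 49 and 81 in place of 150 and 140.

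In Western siAATF against Western null, 0 genes higher became 2 without a filter and 0 to 2 with 1 library left out, and 0 lower became 0 to 1. With chow siAATF 1 and Western siAATF 3 both left out, an alternative chosen after seeing the data, 3 were higher and 1 lower. Over all genes, 236 of 12659 were then higher and 244 lower. In Western siAATF against chow siAATF, 1 lower became 8 with DESeq2, 3 with total counts, 14 without a filter, 0 with the compared groups alone, 3 without the libraries over 25% 18S, 13 without those 2 libraries, 6 at a threshold of 0.1 and 0 to 8 with 1 library left out; 0 higher became 1 with DESeq2 and 1 at 0.1. Against chow null, 4 lower became 8 with DESeq2, 12 without a filter, 2 with the compared groups alone, 2 without the libraries over 25% 18S, 10 without those 2 libraries, 7 at 0.1 and 0 to 7 with 1 library left out. Calls over all genes moved as well. In Western siAATF against chow siAATF, 86 of 11934 genes were lower in the main test. The number was 219 with DESeq2, 278 of 22289 without a filter and 9 of 11007 with the compared groups alone. Without those 2 libraries it was 308 of 12659. Against chow null, 140 of 11934 were lower in the main test. The number was 316 with DESeq2, 359 of 22289, 8 of 11393 and 313 of 12659 in turn. No called fold change of the 29 genes turned its sign under these alternatives. The causes were not tested.

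The labels do not say whether a replicate number marks a shared animal, litter or batch. Same-numbered libraries had correlations of deviations between -0.38 and 0.26 over 18 pairs, of which 1 exceeded 0.1. With 3 libraries per group, such correlations cannot exclude a shared litter or batch. With the replicate block, 12 genes were lower in Western null against chow null, 0 in Western siAATF against chow siAATF and 1 in Western siAATF against chow null. Depth limits Mvd, Idi1, Sqle and Nsdhl, each of which has a library under the floor of 3 counts.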
